A study of Homo sapiens with 11 samples.

Results

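Of the 27578 peaks that the authors' Ikaros list for untreated JM1 cells placed outside promoters, 6292 (22.8%) overlapped a peak by at least 1 bp in each of the other 4 lists of the series. These 6292 regions, called members here, were chosen by 2 values only: the class of the untreated JM1 peak (intron, exon, transcription termination site (TTS) or intergenic, on chromosomes 1 to 22 and X), and its presence in all lists. Both are therefore a description and carry no test. The untreated JM1 list held 37448 peaks in all, and 5654 of its promoter peaks were also in all lists.

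The lists came from chromatin immunoprecipitation and sequencing (ChIP-seq) of Ikaros in established human cell lines of pre-B acute lymphoblastic leukemia. They covered JM1 without treatment, JM1 after 20 µM CX-4945 for 1 day, REH without treatment, 697 without treatment, and Nalm6 after the same dose and time of CX-4945. CX-4945 inhibits the protein kinase CK2, which phosphorylates Ikaros. By the labels, JM1 and REH chromatin was precipitated with the Bethyl A303-516A antibody, and 697 and Nalm6 chromatin with an affinity-purified antibody against Ikaros, so line and antibody cannot be told apart between those pairs. An untreated Nalm6 list was not analysed here. Of 11 libraries, 6 were Ikaros libraries and 5 were inputs, and each condition had 1 peak list. Nalm6 had 2 Ikaros libraries, and which of them its list rests on was not given in the sources used here. With 1 list per condition no replicate error could be measured, so no p-value is given. The intervals printed are exact Clopper-Pearson 95% intervals, which cover counting error only. The other lists numbered 88692 peaks for treated JM1, 83563 for REH, 19652 for 697 and 70894 for treated Nalm6.

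Ikaros, encoded by IKZF1, is a zinc finger transcription factor that lymphoid progenitors need to become B cells, and deletion of IKZF1 is a frequent lesion of high-risk B-cell leukemia. Its DNA-binding zinc fingers read the letters TGGGAA or the shorter GGGAA, and the protein works with chromatin remodelling complexes such as NuRD, at promoters and at enhancers. CpG islands are stretches of DNA that keep many CG dinucleotides, and many of them lie at transcription start sites (TSSs).

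The sequences that the results turn on were of 2 kinds. The first kind is shown by members that ranked among the highest in all 5 lists, printed as 151 bases of the GRCh38 plus strand at the centre of the stretch common to the 5 peaks, with every CG dinucleotide in capitals. They lay at chr6:35688467-35688617 (intron), chr18:62716122-62716272 (exon), chr17:62704179-62704329 (TTS) and chr2:70142279-70142429 (intergenic), and, for members with no TSS within 1000 bp, also at chr7:155344652-155344802, chr12:57865360-57865510 and chr18:79864319-79864469. The FKBP5 stretch held 26 CG dinucleotides and the MARCHF10 stretch 24, against 7 in the BLACE stretch, the sparsest of the 7. BLACE is thus printed here for its rank and not for its CG content. TGGGAA was counted 0 times on either strand in each of these 7 stretches.
FKBP5: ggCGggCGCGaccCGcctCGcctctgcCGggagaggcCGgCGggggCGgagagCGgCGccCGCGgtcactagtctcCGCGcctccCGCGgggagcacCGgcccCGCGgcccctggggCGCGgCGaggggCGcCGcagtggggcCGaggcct
PHLPP1: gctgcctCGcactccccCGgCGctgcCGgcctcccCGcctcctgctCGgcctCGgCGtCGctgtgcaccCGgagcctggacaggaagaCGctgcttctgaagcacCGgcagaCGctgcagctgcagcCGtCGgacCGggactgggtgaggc
MARCHF10: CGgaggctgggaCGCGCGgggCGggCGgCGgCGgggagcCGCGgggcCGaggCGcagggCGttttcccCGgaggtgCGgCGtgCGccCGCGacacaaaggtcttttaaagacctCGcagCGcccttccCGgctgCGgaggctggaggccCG
LINC01816: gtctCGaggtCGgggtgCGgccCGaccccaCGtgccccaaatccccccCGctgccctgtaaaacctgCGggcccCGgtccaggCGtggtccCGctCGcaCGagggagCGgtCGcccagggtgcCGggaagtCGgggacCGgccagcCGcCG
BLACE: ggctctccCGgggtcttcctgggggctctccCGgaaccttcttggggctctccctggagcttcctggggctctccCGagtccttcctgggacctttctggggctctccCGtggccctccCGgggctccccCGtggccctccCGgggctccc
CTDSP2: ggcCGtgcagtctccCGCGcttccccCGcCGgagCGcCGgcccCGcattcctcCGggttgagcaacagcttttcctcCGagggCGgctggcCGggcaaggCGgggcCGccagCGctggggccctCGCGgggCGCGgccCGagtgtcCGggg
KCNG2: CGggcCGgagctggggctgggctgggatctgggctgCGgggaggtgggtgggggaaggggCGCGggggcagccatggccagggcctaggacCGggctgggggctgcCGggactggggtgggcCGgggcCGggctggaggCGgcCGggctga

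The second kind is shown by 3 of the members with most TGGGAA letters at that centre, with TGGGAA or its complement TTCCCA in capitals. They lay at chr6:169242589-169242739 (intron 5 of 22), chr12:56494429-56494579 (intergenic) and chr16:89908175-89908325 (intron 16 of 17). The THBS2 stretch held 13 copies in 151 bases and GLS2 and TCF25 stretches 4 each. All 3 were repetitive: within 100 bp of the centre they matched themselves at some shift of 2 to 60 bases in 71.7, 72.0 and 70.5% of bases. By the same measure BLACE, printed with the first kind, matched itself in 67.6% of bases, close to these. The other stretches of the first kind ranged from 38.1% (CTDSP2) to 50.8% (PHLPP1). The 2 kinds are therefore not cleanly apart in self-match.
THBS2: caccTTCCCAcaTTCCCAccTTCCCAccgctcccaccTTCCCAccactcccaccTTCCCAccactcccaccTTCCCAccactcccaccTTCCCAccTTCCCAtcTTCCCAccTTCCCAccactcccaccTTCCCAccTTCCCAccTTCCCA
GLS2: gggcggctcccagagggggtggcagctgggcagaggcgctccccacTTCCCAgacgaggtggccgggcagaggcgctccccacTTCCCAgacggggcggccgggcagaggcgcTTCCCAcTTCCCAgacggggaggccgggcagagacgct
TCF25: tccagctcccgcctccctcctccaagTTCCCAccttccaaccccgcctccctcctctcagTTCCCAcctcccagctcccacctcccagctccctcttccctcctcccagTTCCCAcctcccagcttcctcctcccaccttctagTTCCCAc

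The label non-promoter was checked against GENCODE release 44, which the rule did not use. Of the members, 3605 (57.3%) had a part within 1000 bp of the TSS of some annotated transcript, 41.3% covered a TSS, and 2687 had none within that distance. Among the other 21286 non-promoter peaks of untreated JM1, 17.7% lay within 1000 bp of a TSS and 7.41% covered one. Counting the peak's centre alone, 44% of members and 12.7% of the other peaks lay that near. With the canonical transcripts of protein-coding genes only, the shares were 34.9% and 4.41%. The class in the files is set by 1 transcript model, and in 2389 members (38.0%) the overlapping peak of another list was itself in the promoter class. The members are thus called by their rule here, and those near a TSS (the 3605) and far from one (the 2687) are given apart.

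Most members of the intron and exon classes were in intron 1 or exon 1, but not those far from a TSS. Of 2690 intron members, 60.5% were in intron 1, against 38.5% of the other intron peaks. Of 1508 exon members, 57.4% were in exon 1, against 30.6% of the other exon peaks. Among peaks far from a TSS, intron 1 held 32.4% of 988 intron members and 34.4% of the other intron peaks. Exon 1 held 5.41% of 388 exon members and 6.91% of the other exon peaks there. Exon peaks were in all lists most often, in 1508 of 3483 (43.3%, interval 41.6 to 45%), followed by TTS peaks with 933 of 3161 (29.5%, 27.9 to 31.1%). Intron peaks were in all lists in 2690 of 13008 (20.7%, 20.0 to 21.4%) and intergenic peaks in 1161 of 7926 (14.6%, 13.9 to 15.4%). These intervals do not overlap one another. Promoter peaks, set apart by the rule, were in all lists in 57.5%. Of the intergenic members 20.6% lay near a TSS, against 58.3% of TTS, 63.3% of intron and 74.3% of exon members.

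Membership was set mostly by the shortest list. Treated JM1 held 79.9% of the non-promoter peaks, REH 81.2%, treated Nalm6 67.3% and 697 24.2%. Of the 10805 peaks present in exactly 3 of the other lists, 10469 (96.9%) lacked a peak in 697, 238 lacked one in Nalm6, 50 in treated JM1 and 48 in REH. At the edge of the rule, 206 members had a smallest overlap of 100 bp or less, and 124 of those 10805 peaks came within 100 bp of a peak of the missing list. The median of the smallest overlap was 550 bp.

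Peaks in more lists were wider, richer in GC and nearer to a TSS. From 0 to 4 other lists, the median width was 428, 506, 630, 927 and 1359.5 bp, and a wider peak meets other peaks more readily. The median GC within 100 bp of the peak centre was 49.3, 53.7, 56.2, 60.7 and 66.7%, and the share within 1000 bp of a TSS was 6.81, 9.74, 14.2, 24.3 and 57.3%. The CpG ratio (CG dinucleotides observed over those expected from C and G) was 0.192, 0.213, 0.245, 0.315 and 0.588. The largest step in the CpG ratio and in nearness to a TSS was the last one, to membership. TGGGAA moved the other way, with 21.5, 21.3, 21.6, 19.7 and 13.9% of windows.

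**Figure D1:**
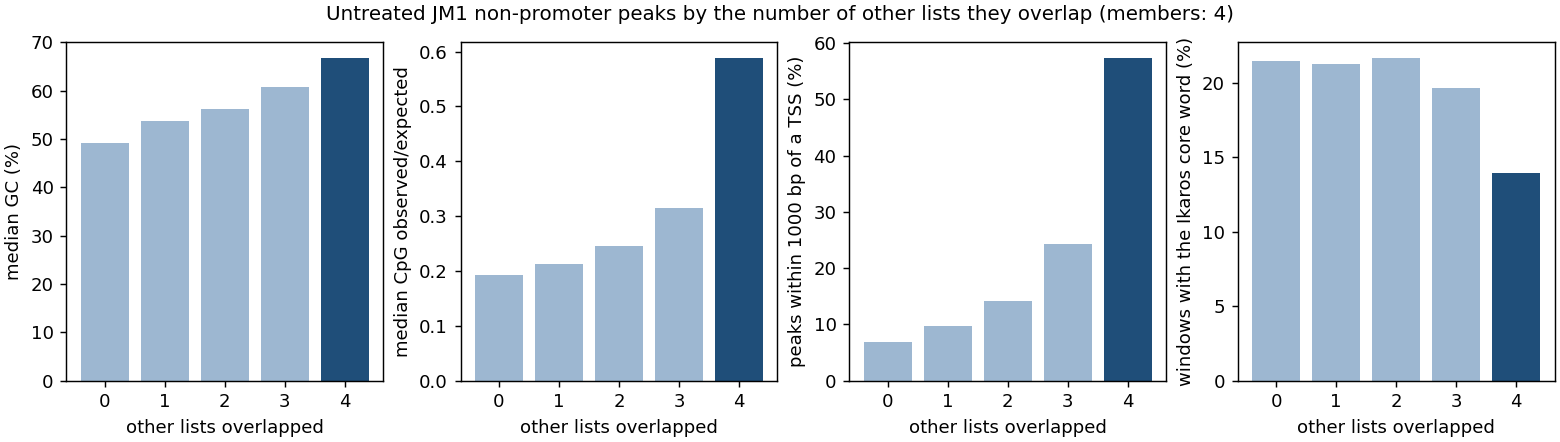
Bars give, for untreated JM1 non-promoter peaks grouped on the x axis by how many of the other 4 lists they overlap, the median GC (%), the median CpG observed over expected, the share within 1000 bp of a TSS (%) and the share of windows of 100 bp to either side of the peak centre with the Ikaros core letters (%). Members, the dark bars, had a median GC of 66.7%, a CpG ratio of 0.588, 57.3% near a TSS and 13.9% with the core letters.

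Members and the other peaks differed in composition also at equal width. Among peaks of at most 500 bp, 749 of 8329 (8.99%) were members, with a median GC of 69.7% against 58.2% in the other peaks of that width, and 47.8% of them had their centre near a TSS against 11.4%. Among peaks over 4000 bp, 552 of 708 (78.0%) were members, with a median GC of 64.2% against 61.2% and 31.0% against 10.3% near a TSS. Counted at the centre, members of at most 500 bp were thus richer in GC and more often near a TSS than those over 4000 bp. Counting any part of the peak, members near a TSS were the wider ones, with a median of 1463 bp against 1261 bp in far members.

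The highest ranked intron members covered TSSs of genes with varied roles. Rank is the percentile of the authors' score within its own list, and members were ordered by their lowest percentile over the 5 lists. The top one, chr6:35688055-35688941, lay over a TSS of FKBP5, in intron 2 of 11 of another transcript. FKBP5 is a co-chaperone of the glucocorticoid receptor and a gene that steroids induce. Its score was 34 for untreated JM1, 66 for treated JM1, 113 for REH, 86 for 697 and 71 for treated Nalm6. Those scores stood at the 98, 97.5, 99.2, 99.3 and 98.8 percentile of their lists, so no list ranked it low. The stretch common to the 5 peaks was 799 bp, with a GC of 80.6% within 100 bp of its centre.

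POGZ, a zinc finger protein that binds heterochromatin protein HP1, had a member at chr1:151458298-151459844 with scores of 92 for untreated JM1, 155 for treated JM1, 160 for REH, 67 for 697 and 62 for treated Nalm6. TBC1D20, a GTPase-activating protein for Rab GTPases, had one at chr20:462046-462550 with 32, 126, 87, 94 and 70 in the same order. Scores of different lists have no common scale, so the higher REH or treated JM1 values are no sign of more binding. PRDM15, a zinc finger transcription factor, had one at chr21:41878598-41879790 with 57, 69, 87, 65 and 69. DGKH, a diacylglycerol kinase, had one at chr13:42040012-42041382 with 33, 55, 116, 68 and 81. All of these covered a TSS and had a GC of at least 81.1% at their centre.

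**Figure D2:**
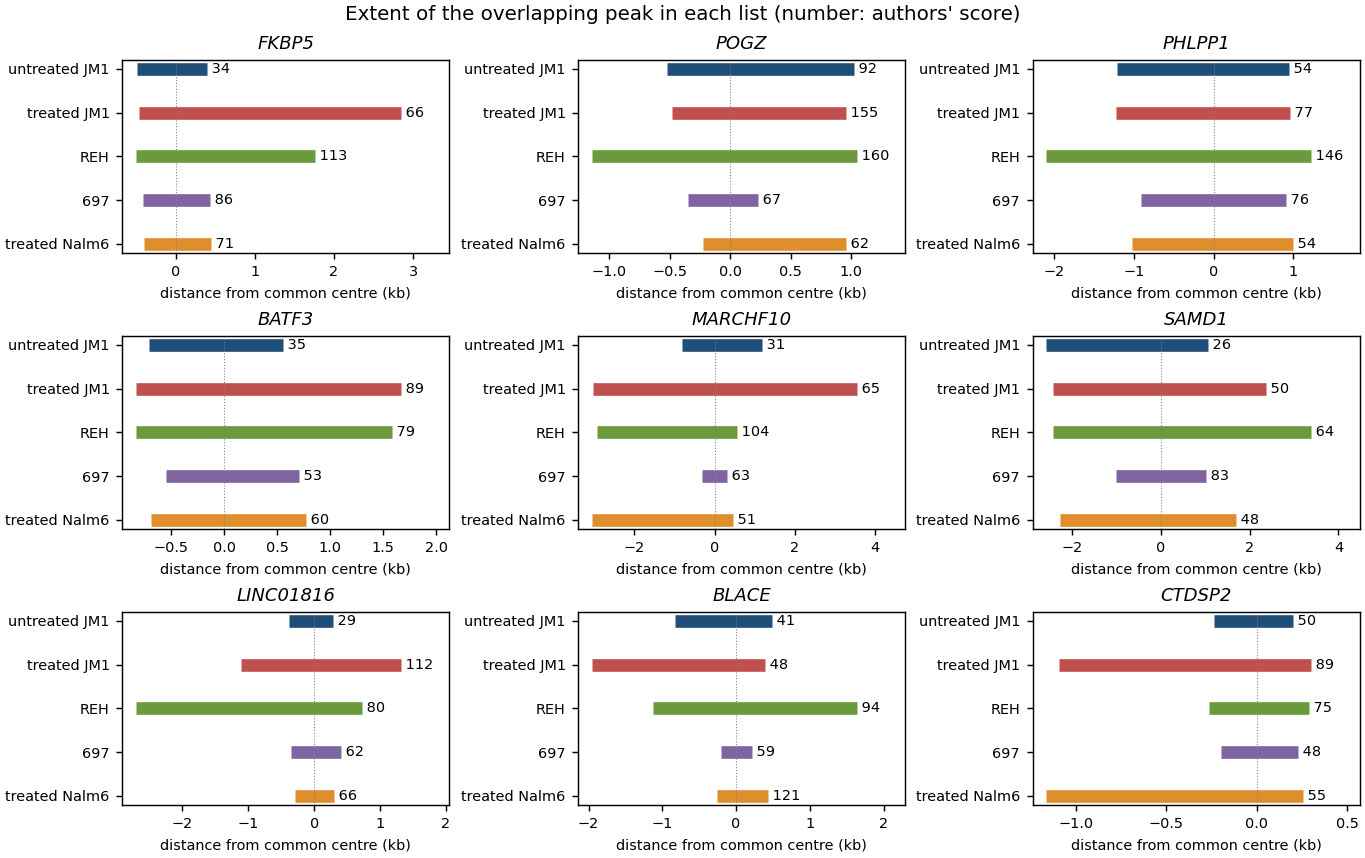
Each bar is the extent, in kb from the centre of the common stretch, of the overlapping peak in 1 of the 5 lists for 9 high-ranked members, and the number beside it is the authors' score in that list. The 697 peak is shorter than the treated JM1 and REH peaks in all 9, as at FKBP5 with 847 bp against 3306 and 2270 bp.

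Exon members at the top were first exons. PHLPP1, a phosphatase that removes phosphate from AKT, had a member at chr18:62714989-62717138 over exon 1 of 17, with scores of 54 for untreated JM1, 77 for treated JM1, 146 for REH, 76 for 697 and 54 for treated Nalm6. BATF3, a transcription factor of the AP-1 family, had one at chr1:212699142-212700412 over exon 1 of 3, with 35, 89, 79, 53 and 60 in that order. ASAP2, a GTPase-activating protein for ARF GTPases, had 30, 68, 137, 53 and 65 at chr2:9206428-9208027. The others among the top 5 were exon 1 of CDR2L (chr17:74987672-74988511) and the single exon of TLNRD1, a protein related to talin (chr15:81000680-81002511). The CDR2L peak itself ended 40 bp from the TSS and the other 4 covered theirs.

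Members in the TTS class stood at a gene's end in the file's transcript, yet the top 5 also stood at a start or within 455 bp of one. The member at chr17:62703432-62705445 covered a TSS of MARCHF10, which encodes an E3 ubiquitin ligase, with scores of 31 for untreated JM1, 65 for treated JM1, 104 for REH, 63 for 697 and 51 for treated Nalm6. SAMD1, a protein that binds unmethylated CpG islands, had 26, 50, 64, 83 and 48 at chr19:14088013-14091669. The member named for AC009133.1 in the file covered a TSS of MAZ, a zinc finger transcription factor, at chr16:29805390-29813123. H2AFX, the gene of histone variant H2AX, had its member at chr11:119094037-119094994, 455 bp from the TSS, and ZBED4 at chr22:49853698-49854228, over a TSS.

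Intergenic members were the ones that most often lay away from any start. LINC01816, a long non-coding RNA gene, was nearest to the top one, chr2:70141973-70142643, at 9050 bp. It scored 29 for untreated JM1, 112 for treated JM1, 80 for REH, 62 for 697 and 66 for treated Nalm6, and its centre had a GC of 77.1% and a CpG ratio of 0.949. BLACE, a gene named for its expression in B-cell acute lymphoblastic leukemia, was 22716 bp from the member at chr7:155343904-155345218, which scored 41, 48, 94, 59 and 121 in that order. The centre of that member had a GC of 72.6% but a CpG ratio of only 0.382. The member filed under RNU1-80P covered a TSS of TNRC6C, a component of microRNA silencing, at chr17:77958144-77959574.

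Across all 2687 members far from a TSS, the next ranks after these, listed once their values had been seen, included CTDSP2, KCNG2, CACNA1A and SERTAD3. CTDSP2, a phosphatase that acts on the tail of RNA polymerase II, was the nearest gene in the file to chr12:57865200-57865636, with scores of 50 for untreated JM1, 89 for treated JM1, 75 for REH, 48 for 697 and 55 for treated Nalm6. KCNG2, a potassium channel subunit, had 28, 42, 50, 48 and 66 at chr18:79864306-79864589, 11295 bp from its TSS. CACNA1A, a subunit of a calcium channel of neurons, had 25, 34, 46, 45 and 42 in intron 46 of 46 at chr19:13207100-13209479. Far members had a median GC of 67.7% at the common centre, against 71.6% in those near a TSS, and a median CpG ratio of 0.555 against 0.779.

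By a rule of GC of at least 55% and a CpG ratio of at least 0.65 within 100 bp of the centre, 54.8% of members were island-like at the common centre, 66.6% of those near a TSS and 39.0% of those far from one. Windows at the centre of the untreated JM1 peak allow the same window for all peaks: 41.8% of members, 28.4% of far members and 6.05% of the other non-promoter peaks were island-like there, and 3.93% of the other peaks far from a TSS. For promoter peaks in all lists the value was 70.9%. Far members thus lay between the other far peaks and promoter peaks in this measure.

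The share of non-promoter peaks that were members was low below 55% GC and went up above it. It was 7.22% of 194 peaks at 30 to 35% GC, 6.39% of 532 at 35 to 40%, 4.56% (interval 3.49 to 5.84%) at 40 to 45% GC, 12% (11.2 to 12.9%) at 55 to 60%, 40.8% (39.2 to 42.3%) at 65 to 70% and 86.5% (83.9 to 88.7%) at 75 to 80%. At 80 to 85% GC, 251 of 262 peaks (95.8%) were in all lists. Read depth and input signal at these regions were not analysed here, and their part in these shares was not tested. At equal GC, members still had more CG dinucleotides and lay nearer to a TSS: at 60 to 65% GC the CpG ratio was 0.393 against 0.280 and the share near a TSS 51.4% against 19.7%.

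TGGGAA was less frequent in members than in the peaks of fewer lists. At the common centre, 11.8% of members (interval 11 to 12.6%) held it on either strand within 100 bp, 10.1% near a TSS and 13.9% far from one. At the centre of the untreated JM1 peak the share was 13.9% (13.1 to 14.8%) in members, 20.6% (20.0 to 21.1%) in the other non-promoter peaks and 11.9% in promoter peaks in all lists. In bins of width the members' share there was the lower up to 4000 bp, as with 12.6% against 21.5% at most 500 bp. Over 4000 bp the order was the other way, with 15.6% of 552 members against 13.5% of the others. Within 200 bp of the peak centre the shares were 26.7% in members and 37.2% in the others. The same letters reversed, AAGGGT, which have the same base content, were found in 7.07% of members and 9.15% of the others. GGGAA, which TGGGAA contains, was in 49.0% of members and 51.8% of the others, and AAGGG in 42.5 and 46.7%.

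At equal GC the shares stood closer from 45 to 75% and further apart above. Members held TGGGAA in 18.9% (16.9 to 21.2%) and the other peaks in 20.4% (19.3 to 21.6%) at 60 to 65% GC, and in 14.3% (12.6 to 16.1%) and 16.6% (15.1 to 18.2%) at 65 to 70%, where the intervals overlap. At 70 to 75% the shares were 8.66% (7.07 to 10.48%) and 11.4% (8.77 to 14.5%), again overlapping. In the bins from 45 to 80% GC the members' share was the lower in each, with 6.93% of 721 members (5.19 to 9.04%) against 14.2% of 113 other peaks (8.32 to 22%) at 75 to 80%, where the intervals overlap. At 80 to 85% it was 3.98% of 251 members and 2 of 11 other peaks. AAGGGT at 60 to 65% GC was at 9.20 and 9.04%, lower than TGGGAA in both.

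**Figure D3:**
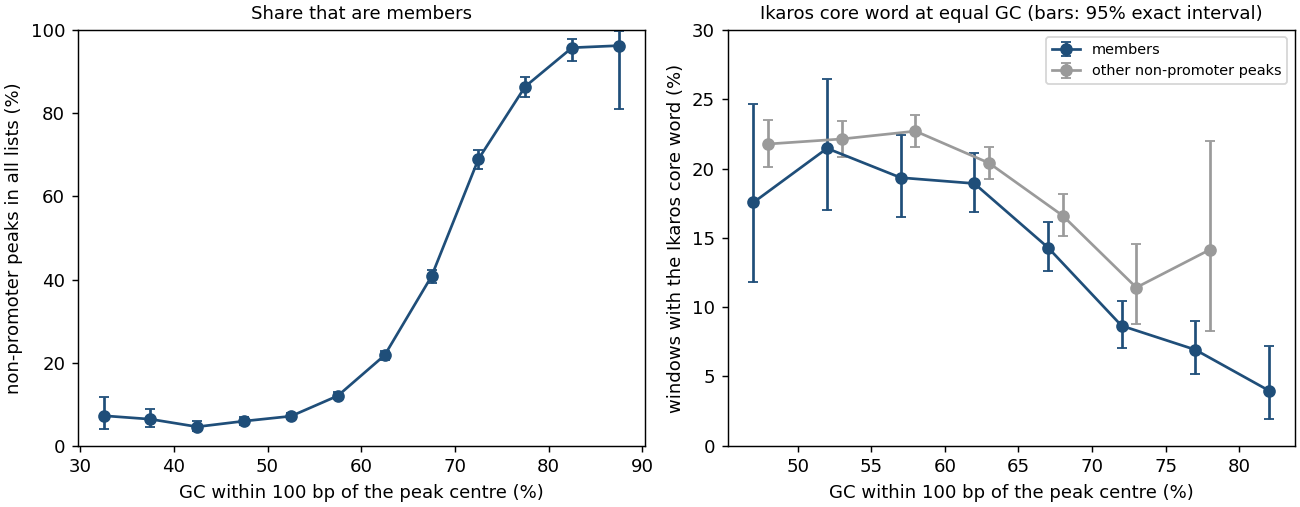
Left, the share (%) of untreated JM1 non-promoter peaks found in all lists by the GC (%) within 100 bp of the peak centre; right, the share (%) of windows with the Ikaros core letters in members and in the other non-promoter peaks in the same bins, where the right panel leaves out bins with under 100 peaks. Points are bin values and bars the exact 95% intervals; the left curve starts at 7.22% at 30 to 35% GC, is lowest with 4.56% at 40 to 45% and reaches 95.8% at 80 to 85%, and the right curves lie close together at 60 to 65% (18.9 and 20.4%).

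Of 24 core letter strings searched on both strands, the one of SP/KLF factors, GGGGCGGGG, was more frequent in members. SP and KLF proteins are zinc finger factors of GC-rich promoters. At the peak centre it was found in 6.75% of members, 1.59% of the other non-promoter peaks and 16.5% of promoter peaks in all lists. In each bin from 50 to 80% GC the members' share was the higher, as at 75 to 80% with 15.5% against 10.6%. The intervals overlapped except at 55 to 60% GC, with 2.38% (1.39 to 3.79%) of members against 1.03% (0.78 to 1.35%) of the others. At 45 to 50% and at 80 to 85% GC the order was the other way. CCCNNGGGA, a form bound by EBF1, which specifies the B lineage, was in 11.7% of members and 7.59% of the others. In bins of GC its order changed: 9.40 against 7.78% at 55 to 60% GC, 14.8% (13.0 to 16.9%) against 10.8% (9.97 to 11.8%) at 60 to 65%, where the intervals do not overlap, and 11.5 against 12.8% at 65 to 70%. The promoter form of the ETS core, CCGGAAG, was in 2.86 and 1.78%. NRF1 (GCGCATGCG) was in 0.21 and 0.05%.

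Most strings with more A and T were less frequent in members than in the other peaks at the peak centre, other than the YY1 one. CCAAT of NFY was in 10.2% of members against 17.4%, CTANNNNTA of MEF2 in 4.43 against 10.2%, AAANNGAAA of IRF factors in 2.81 against 5.66%, GGAANNGAA of ETS with IRF in 2.91 against 5.20%, AGATAA of GATA factors in 2.23 against 4.89%, TGTGGTT of RUNX in 1.83 against 3.23%, TGANTCA of AP-1 in 1.95 against 4.49% and CTTTGAA of TCF/LEF in 1.24 against 2.52%. Smaller differences were seen for GGNNTTTCC of NF-kB (3.37 against 4.20%) and for ATGCAAAT of OCT (0.33 against 0.56%). AAGATGGCG of YY1 was rare in both and higher in members (0.19 against 0.15%). E-boxes bound by E2A, a factor of early B cells, were near equal, with CAGCTG in 16.2 and 16.7% and CAGGTG in 25 and 26.7%. The forms CAGGAAG and GAGGAAG of ETS and PU.1, which share GGAAG, were in 10.0 against 10.9% and in 8.96 against 9.74%. The CTCF core was in 0.19 against 0.24%. A match is only a match of letters, and these shares are not adjusted for GC.

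The members with most TGGGAA were repeats. The THBS2 member, chr6:169242434-169243309, held 17 copies within 100 bp of the common centre. THBS2 encodes the matrix protein thrombospondin 2. It scored 205 for untreated JM1, 91 for treated JM1 and 99 for REH, and 23 for 697 and 27 for treated Nalm6, so its lowest percentile was 51.4. Of the other members printed above, the GLS2 one (GLS2 is a glutaminase of mitochondria) held 6, with 24, 48, 48, 15 and 24. The TCF25 one held 5, with 20, 26, 41, 22 and 22. Not every member in this order is named here. The AC226118.1 member, lower in this order than TCF25, held 4 and matched itself in 39.7% of bases. In all, 90 members (1.43%) matched themselves in at least 70% of bases at a shift of 2 to 60 bases, against 1.11% of the other peaks.

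Within their own lists, the overlapping peaks ranked high in the long lists and near the middle in the short one. The median percentile of the best scored overlapping peak was 85 for treated JM1, 84.5 for REH, 84.2 for treated Nalm6, 65.0 for untreated JM1 and 56.9 for 697. Overlap by 1 bp favours wide peaks. The peaks met had a median width of 4287 bp in treated JM1 and 4810 bp in REH, against 1185 and 1195 bp in those whole lists. The part of this in the ranks was not tested, and ranks of the peaks that other regions met are not given here. The lowest of the 5 percentiles was the one of 697 in 3180 members (50.5%) and of untreated JM1 in 2171 (34.5%). Score percentiles of members were related weakly between lists, with Spearman's rank correlation from 0.19 between untreated JM1 and 697 to 0.48 between treated JM1 and REH, over 6292 members. A long peak that spans several members enters once for each of them. The 6292 values are thus not separate peaks, with 5582 different ones in treated JM1 and 5444 in REH. The widths of their peaks were related between lists too, with correlations from 0.23 to 0.80, and the part of width in the score relation was not tested. The score correlation was 0.31 between both JM1 lists, which came from the same line and antibody, and 0.41 between 697 and treated Nalm6, which share an antibody. Treated JM1 and REH (0.48) and untreated JM1 and REH (0.24) share one too. In the remaining pairs the antibodies differ. There the score correlation was 0.35 between treated Nalm6 and REH or treated JM1, 0.29 between treated JM1 and 697 and 0.28 between REH and 697. It was 0.20 between untreated JM1 and treated Nalm6 and 0.19 between untreated JM1 and 697.

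**Figure D4:**
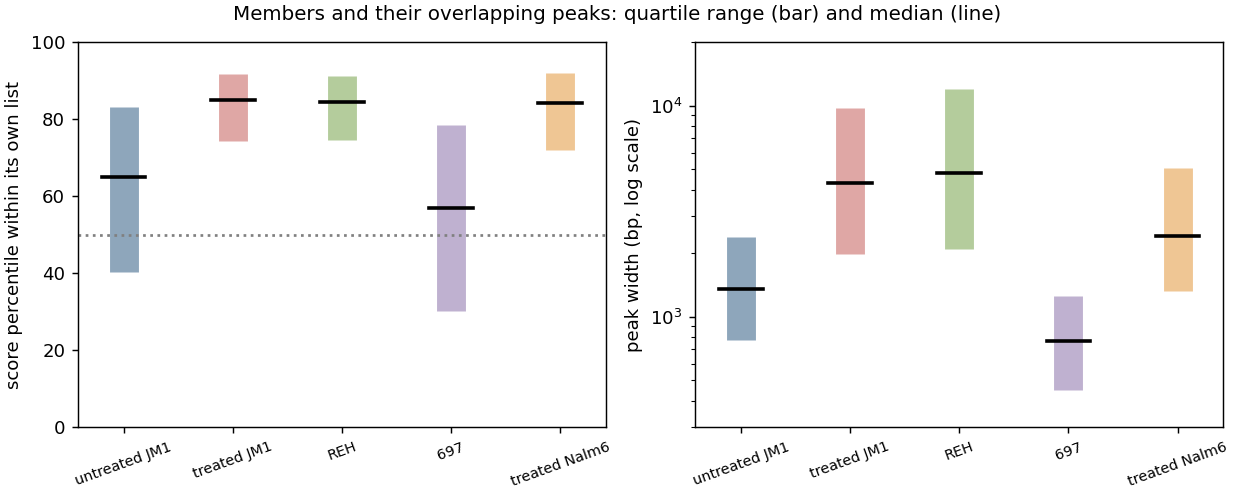
For the 6292 members, bars span the quartiles and black lines mark the median of the score percentile within its own list (left, dotted line at the list's middle) and of the peak width in bp on a log axis (right). The median percentile was lowest in 697 (56.9) and highest in treated JM1 (85), and the median width went from 770 bp in 697 to 4810 bp in REH.

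The overlapping peaks differed in width between lists. The median width was 1359.5 bp for untreated JM1, 4287 bp for treated JM1, 4810 bp for REH, 770 bp for 697 and 2411 bp for treated Nalm6. Treated JM1 peaks were wider than the untreated JM1 one in 92.9% of members, REH peaks in 94.6%, treated Nalm6 peaks in 80.2% and 697 peaks in 25.2%. Because long peaks span several members, the 6292 members met 5582 different best scored peaks in treated JM1 and 5444 in REH, against 6262 in 697. Between the centre of the member and that of the other peak, the median distance was 731.5 bp with treated JM1, 771 bp with REH, 311 bp with 697 and 412 bp with treated Nalm6. A stretch common to all 5 lists, which the rule makes likely, existed in 6215 members (98.8%), with a median of 544 bp, and 77 members met the other peaks at places that did not coincide. A reciprocal overlap of 50% was reached in 31.6% of members with treated JM1, 28.5% with REH, 42.6% with 697 and 48.4% with treated Nalm6.

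The widest members included those at BAHCC1 and AK6P1. BAHCC1, a chromatin reader of the BAH domain family, had a member of 31600 bp at chr17:81392467-81424066, with scores of 20 for untreated JM1, 43 for treated JM1, 56 for REH, 42 for 697 and 47 for treated Nalm6. Next to the pseudogene AK6P1, 82923 bp away, the member of 19966 bp at chr12:34332404-34352369 scored 24, 34, 27, 17 and 28. The stretches common to the 5 lists were 4746 and 2374 bp, far shorter than the members. The 697 peaks whose scores are given, the best scored ones met, were only 663 and 542 bp wide. The common stretches therefore lay in other 697 peaks than the scored ones. In all, 35 members were wider than 10000 bp.

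Members were dense on chromosome 19 and frequent toward chromosome ends. Chromosome 19 held 823 members (13.1%), or 14 per Mb, and 38.5% of its non-promoter peaks were members, against 22.8% in all chromosomes. Chromosome 17 followed with 5.13 per Mb and chromosome 22 with 4.66, and X was lowest with 0.545. The shares of their non-promoter peaks that were members were 21.1% on 17, 20.4% on 22 and 21.4% on X, near the 22.8% of all chromosomes, so these densities follow the number of peaks. In the outermost 1 Mb of chromosomes, 612 of 1693 peaks (36.1%, interval 33.9 to 38.5%) were members, and beyond 20 Mb 2460 of 12202 (20.2%, 19.5 to 20.9%). Nearness to an end hardly set members apart from the peaks of exactly 3 other lists, with 36.9 and 35.6% within 5 Mb of one. For peaks far from a TSS the shares of members in the outermost 1 Mb and beyond 20 Mb were 27.1 and 8.96%. GC moved with position, with a median of 61.7% for non-promoter peaks in the outermost 1 Mb and 57.7% beyond 20 Mb, and its part in this was not tested.

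**Figure D5:**
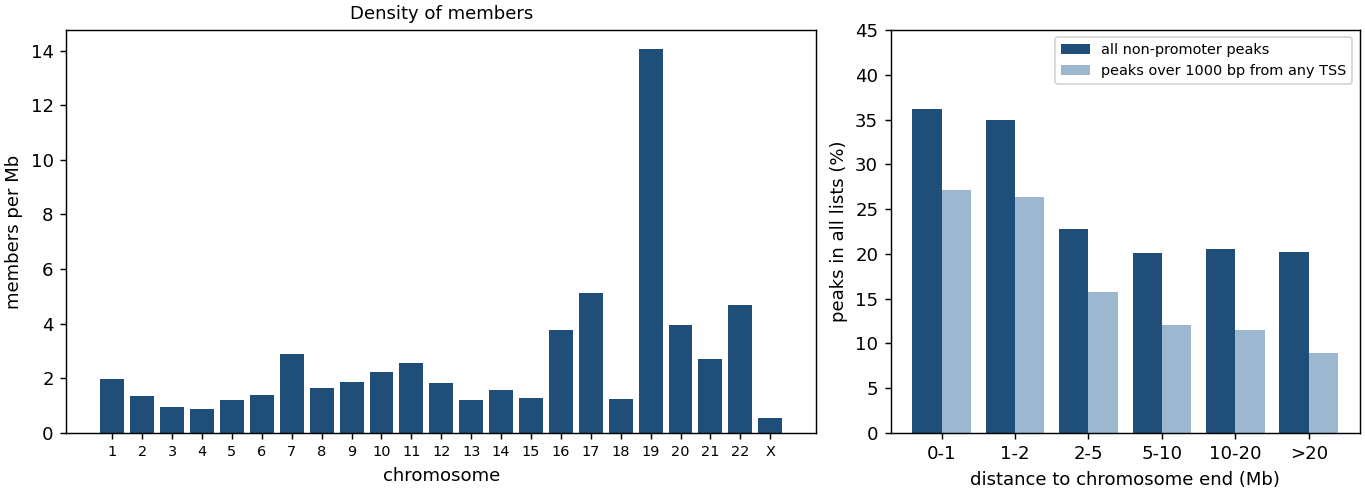
Left, members per Mb of each chromosome; right, the share (%) of untreated JM1 non-promoter peaks found in all lists by distance to the nearer chromosome end (Mb), for all peaks and for those over 1000 bp from any TSS. Chromosome 19 stands at 14 per Mb, and the share goes from 36.1 to 20.2% for all peaks and from 27.1 to 8.96% for far ones.

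Joined across gaps of up to 12.5 kb, the members formed 4703 groups, of which 3817 were single members and 332 held 3 or more, with 1367 members (21.7%) among them. The largest, chr19:827902-961629, held 21 members from AZU1 and ELANE to R3HDM4. AZU1, PRTN3 and ELANE are genes of neutrophil granule proteins. The AZU1 member with the best rank, in exon 4 of 4, scored 15 for untreated JM1, 39 for treated JM1, 47 for REH, 43 for 697 and 36 for treated Nalm6, and the ELANE one 28, 27, 47, 68 and 32. Next came 14 members around SSTR5, a somatostatin receptor, at chr16:1019020-1131489, and 11 in EXD3 and ENTPD8 at chr9:137351100-137436169.

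The gene with most members was MAD1L1, a spindle checkpoint gene at the end of chromosome 7, with 20 of its 50 non-promoter peaks, and 0 of the 20 lay near a TSS. KDM4B, a histone demethylase, had 13 of 26, SBNO2 11 of 15, EXD3 10 of 15, ADAP1 9 of 11, ADGRA1 9 of 14 and INPP5A, an inositol phosphatase, 9 of 34. The non-coding names AC073094.1 and AC226118.1, which also lie on chromosome 7, had 12 of 19 and 10 of 16. Y_RNA and Metazoa_SRP, each a name shared by many small RNA loci, had 15 of 128 peaks on 10 chromosomes and 11 of 56 on 7. In all, 4659 of 13084 gene names of non-promoter peaks (35.6%) had a member, 3690 of them exactly 1 and 71 at least 5. The nearest gene was protein-coding for 74.4% of members and 56.8% of the other peaks, and a long non-coding RNA gene for 15.4 and 21.5%.

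Among protein-coding gene names with a non-promoter peak in untreated JM1, 46.1% had a member, and the gene lists are read beside that value. The lists were chosen with earlier results of these data known and are no independent evidence. Of B-cell transcription factors, 13 of 21 had a member: BACH2, BCL11A, ID2, ID3, IRF4, MEF2D, MYB, PAX5, POU2F2, RUNX1, SOX4, TCF3 and ZEB2. The best ranked was ZEB2, a zinc finger repressor, with scores of 34 for untreated JM1, 31 for treated JM1, 71 for REH, 55 for 697 and 47 for treated Nalm6 at chr2:144515976-144517283, over a TSS. ID3, an inhibitor of E2A proteins, had 23, 28, 69, 44 and 34 at chr1:23567951-23569283, 8450 bp from its TSS. BCL11A, a zinc finger factor of early B cells, had 24, 52, 68, 38 and 33, and BACH2, a repressor in B cells, 17, 46, 96, 33 and 28.

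Of the Ikaros family, IKZF1 itself had 1 member, chr7:50399830-50400269, over the TSS of a neighbouring annotated gene and in the TTS class. It scored 12 for untreated JM1, 14 for treated JM1, 35 for REH, 17 for 697 and 117 for treated Nalm6, and 37 bp were common to all 5 peaks. Its lowest percentile over the 5 lists was 18.2. Of pre-B cell receptor and surface genes, 5 of 17 had a member (BLK, CD34, CD74, CD81 and LYN), a share of 29.4%. CD81, a tetraspanin of the B-cell surface, had one of 10551 bp at chr11:2386568-2397118 with 17, 34, 48, 15 and 28. Of V(D)J recombination genes 0 of 2 and of CK2 subunits 0 of 1 had a member, too few to read.

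Signalling genes had members in 10 of 16 for the PI3K and inositol lipid list and in 4 of 10 for JAK-STAT and NF-kB. PIK3AP1, a B-cell adaptor for PI3K, had scores of 31 for untreated JM1, 79 for treated JM1, 100 for REH, 46 for 697 and 43 for treated Nalm6 at chr10:96718845-96721057. INPP4A, a lipid phosphatase, had 23, 60, 114, 59 and 59 at chr2:98444878-98445367. All 4 best ranked genes of that list, with PIK3CD and PIK3R1, which encode subunits of PI3K, had their member in intron 1 and within 95 bp of a TSS. RELB and STAT3, transcription factors of NF-kB and JAK-STAT signalling, had theirs in exon 1, and SOCS3, an inhibitor of JAK signalling, at 6208 bp from the TSS.

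Chromatin regulators had a member in 12 of 17 (70.6%), the highest share of the 17 lists, beside 46.1% of all protein-coding gene names with a non-promoter peak. The list is small, and whether its share differs from that value was not tested. Markers of liver, muscle and pancreas and the PI3K list both stood at 62.5%. They included ARID1A, ARID1B and SMARCA4 of SWI/SNF complexes, CHD4 and MTA1 of NuRD, HDAC4, HDAC7, KDM1A, KMT2B, KMT2D and DOT1L. KMT2D, a histone H3 methyltransferase, scored 49 for untreated JM1, 42 for treated JM1, 70 for REH, 53 for 697 and 42 for treated Nalm6 at chr12:49058337-49060853. ARID1A had 19, 45, 114, 43 and 43 over exon 1 of 20. The list of glucocorticoid and drug response genes had 5 of 9, with FKBP5 above, NT5C2, a nucleotidase of thiopurine metabolism (28, 59, 104, 63 and 36), SLC19A1, the folate carrier that takes up methotrexate (37, 34, 52, 46 and 43), ABCC1 and TOP1.

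Cell cycle genes had a member in 5 of 13 (CCND2, CDKN1A, CDKN2C, E2F1 and E2F2). CDKN1A, which encodes the inhibitor p21, scored 38 for untreated JM1, 65 for treated JM1, 112 for REH, 43 for 697 and 27 for treated Nalm6 at chr6:36677391-36680638. BCL2 family genes had one in 3 of 6 (BAK1, BBC3 and BOK). BBC3, the gene of the pro-apoptotic protein PUMA, had 19, 79, 88, 81 and 68 at chr19:47230386-47231448, over a TSS. Adhesion and migration genes had one in 5 of 11, with CDH1 and CDH2, the E- and N-cadherin genes, in intron 1.

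Markers of other cell types were represented too. A member was found for 7 of 13 T cell markers, 3 of 10 myeloid, 1 of 8 erythroid and megakaryocyte, 5 of 8 liver, muscle and pancreas and 5 of 10 neuron markers, 21 of 49 (42.9%) together, against 63 of 125 (50.4%) in the other 12 lists. TBX21, a transcription factor of T helper cells, scored 34 for untreated JM1, 52 for treated JM1, 42 for REH, 30 for 697 and 66 for treated Nalm6, over a TSS at chr17:47733135-47735379. MYOD1, the master regulator of muscle, had 19, 20, 24, 13 and 26 and PDX1, a pancreas factor, 14, 36, 31, 24 and 37, both in exon 1. Counted by gene bodies instead of the nearest gene, 48.3% of 8129 protein-coding genes with a non-promoter peak in the body had a member there. A peak beside a gene says nothing of its expression, which was not measured.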

How the data were processed

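ChIP-seq of Ikaros was deposited as 1 peak list per condition. Reads were quality-trimmed by BBDuk, per the labels' protocols. The submitters' processing notes name HOMER 4.10, MACS2 2.1.1, Bowtie2 2.3.4.3 and GRCh38. Call settings, control and pooling were not given in the sources used here. Per the file headers, each deposited peak carries the authors' position, annotation class, nearest gene and whole-number score, whose meaning was not given in the sources used here. Scores were ranked within a list only. Read depth was not analysed here, so depth cannot be weighed.

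Coordinates were used 1-based as deposited, with the GRCh38 sequence and GENCODE release 44. Overlap was at least 1 bp, near a TSS meant any part within 1000 bp, and letters were counted on both strands within 100 bp of a centre. The overlap, window and motif code was tested on simulated data. Python 3.11.15, pandas 2.3.3, numpy 2.4.6, scipy 1.17.1 and pysam 0.24.0 were used. Named were the 5 members of each class with the highest lowest percentile, the 10 gene names with most members, up to 4 genes of each of 17 lists, the 3 widest members and those with most TGGGAA; some of these are not reported here. Members and lists were chosen with earlier results of these data known. Date-like gene names of 2 members were restored from their transcripts. A planned soft-masked share was replaced by self-match at 2 to 60 bases, since the reference used carries no masking. Alternatives varied the overlap rule, score, width, required lists, windows and TSS set.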

Additional observations from a re-analysis of the deposited data

Results flagged for a closer look

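Outside the chromosomes of the rule, the untreated JM1 list held 25 peaks on unplaced or unlocalized contigs, which no comparison above uses, and 10 of them overlapped a peak in treated JM1, REH and 697. Of those 10 peaks, 7 lay on 1 contig. The Nalm6 list held 0 peaks on such contigs, so presence in all lists could not be met there.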

How the results depend on the processing

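The number of members rested on the rule and on the 697 list. It was 627 with a reciprocal overlap of 50%, 2726 with peaks scored at or above the median of every list, and 2347 with as many top-scored peaks of every list as in 697. It was 4128 without peaks over 10000 bp, 2687 without members near a TSS and 16761 when 697 was not required. It was 6215 with a common stretch, 6434 from the 697 list, and 6340, 6342 and 6530 without REH, treated JM1 and Nalm6. The share with TGGGAA at the common centre (11.8%) was 9.25, 9.76 and 9.97% under the first 3 of these settings, 13.9% far from a TSS, 17.3% without 697, 22.7% within 200 bp of the centre and 13.9% at the centre of the untreated JM1 peak. The share near a TSS (57.3%) was 80.5, 69.7 and 73.2% under those 3 settings, 61.7% without peaks over 10000 bp, 49.4% from the 697 list, 36.6% without 697 and 34.9% with canonical coding transcripts. Except for the reciprocal and far-from-TSS settings for TGGGAA and both window settings, the settings for these shares were chosen after seeing the data. Why the values moved was not tested. Of the list genes, 84 had a member by nearest gene and 88 by gene body. No paired analysis was possible because each condition had 1 peak list and no result comes from a test. Depth and replicate spread were not measured, and leaving out a replicate was not possible.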
